A study of Mus musculus with 4 samples.

Results

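The miR-23/27/24 family was followed through its 5 mature strands, mmu-miR-23a-3p, mmu-miR-23b-3p, mmu-miR-27a-3p, mmu-miR-27b-3p and mmu-miR-24-3p (the species prefix is mostly left out below), which were found by name among the 1265 mouse miRNA probes of each array. All 5 had a probe of their own at 1 spot. The family was chosen by its spot, local background and net intensities on these same arrays, seen in earlier results, so the values below are a description and carry no test.

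The 4 arrays measured esophagus and serum of L2-IL-1β mice at 28 and at 46 weeks of age, with 1 array for each combination. In this strain human interleukin-1β is driven by a viral promoter active in the squamous lining of the mouth, esophagus and forestomach, and the mice develop inflammation followed by Barrett's esophagus, in which columnar epithelium replaces squamous epithelium. All 4 samples carried the transgene and were labelled with Barrett's esophagus, and mice without the transgene were not analysed here. Tissue RNA and serum RNA were extracted with different kits, so an effect of the kit and one of the sample type cannot be told apart. The sources used here do not say how many mice lie behind an array. With no replicates, none of the differences has a replicate check and no p-value is given. In bulk samples fewer cells of a type and less RNA per cell cannot be told apart.

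MicroRNAs are short RNAs cut from hairpins in longer transcripts, and they repress messenger RNAs that pair with their seed, the bases near the 5′ end. The mouse has a pair of paralogous clusters of this family, each transcribed as a common primary transcript that yields a miR-23, a miR-27 and a miR-24. Strands of a common transcript can still accumulate at different levels, because processing and stability differ between hairpins. In mice miR-23b represses Tab2, Tab3 and Chuk, which carry signals of interleukin-1β, TNF and interleukin-17 to NF-κB. The miR-27 strands repress regulators of fat cell differentiation such as Pparg, and miR-24 represses cell cycle genes in human cells. The mir-23a cluster favours myeloid over lymphoid development in mice.

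In the RefSeq annotation of build GRCm38.p6 the first cluster spans 404 bases on the plus strand of chromosome 8, from 84208518 to 84208921, in the order Mir23a, Mir27a, Mir24-2. No coding gene overlaps it and the nearest, Zswim4, starts 2021 bases beyond its end. The second cluster spans 792 bases on the plus strand of chromosome 13, from 63300484 to 63301275, in the order Mir23b, Mir27b, Mir24-1. It lies within the bounds of Aopep (62964893 to 63326096), an aminopeptidase gene. Whether it is exonic or intronic was not analysed here.

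The mature strands of 4 of the 5 miRNAs were matched by name to RefSeq, and they are shown because their seeds set apart the 3 groups compared below and because both miR-27 strands are nearly alike. They are written 5′ to 3′ with the seed (bases 2 to 8) in capitals.
mmu-miR-23a-3p (chr8:84208563-84208583, plus strand): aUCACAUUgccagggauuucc
mmu-miR-27a-3p (chr8:84208727-84208747, plus strand): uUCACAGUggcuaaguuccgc
mmu-miR-27b-3p (chr13:63300760-63300780, plus strand): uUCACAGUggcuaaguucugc
mmu-miR-24-3p (chr8:84208875-84208896 and chr13:63301251-63301272, plus strand): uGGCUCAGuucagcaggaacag

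Counted from 1 at the 5′ end, miR-27a-3p and miR-27b-3p differ at 1 of 21 positions, C19U, which lies outside the seed. The seeds of miR-23a-3p and miR-27a-3p differ at 1 position, U7G, while the full strands differ at 10 of 21 positions. Mature miR-24-3p is identical from both clusters, so its spot reads the sum of both loci. The mature strand of miR-23b-3p was the member not matched by name in RefSeq, so it is not printed and its likeness to miR-23a-3p was not counted. How far the probe for one miR-27 strand also binds the other was not tested, and the same holds for the probes of the miR-23 strands. The spots of such a pair are therefore not known to be independent readings.

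The esophagus arrays carried strong signal of squamous and muscle miRNAs and the serum arrays of some erythrocyte miRNAs. Net signal means spot intensity minus the mean of the BLANK spots, in arbitrary units. In serum the 5 erythrocyte miRNAs summed to 43865 net units at 28 weeks and 28559.8 at 46 weeks, against 1138 and 1272 in esophagus. Of the serum sums miR-451a made 36871 and 23648, while miR-144-5p read 12.8 and 4.63. In esophagus the squamous list (miR-203-3p and miR-205-5p) summed to 3067 net units at 28 weeks and 3453 at 46 weeks, against 54.1 and 242 in serum, and the 4 striated muscle miRNAs summed to 7826 and 9179.8 against 868 and 163. The columnar list of 4 was dim in esophagus, at 98.3 and 147 net units. A miRNA was called detected when its spot was above the BLANK mean plus 2 SD, and between 853 and 1000 of the 1265 were detected per array. This limit is lenient. Of the No Probe control spots, 77.3% also passed it in esophagus at 28 weeks, and 39.2% to 40.2% on the other arrays. A stricter limit, the No Probe mean plus 2 SD, was exceeded by 573 to 764 miRNAs per array. Spike-in spots averaged 12214 net units at 28 weeks and 14441 at 46 weeks in the tissue, against 9324 and 14018 in serum.

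All 5 members were detected on all 4 arrays and also exceeded the stricter limit taken from the No Probe spots. In esophagus the spot of mmu-miR-23a-3p read 2316 at 28 weeks and 2114 at 46 weeks, and that of miR-23b-3p read 2161 and 2341. The spot of miR-27a-3p read 1305 and 1317 and that of miR-27b-3p 836 and 941. The spot of miR-24-3p read 1385 and 1494. None of the 5 spots moved much with age in the tissue, and the direction was downward for miR-23a-3p and upward for the other 4.

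In serum the spot of mmu-miR-23a-3p read 1166 at 28 weeks and 1915 at 46 weeks, and that of miR-23b-3p read 973 and 1587. The spot of miR-24-3p read 596 and 995. The spot of miR-27a-3p read 379 and 393, and that of miR-27b-3p read 222 and 185. Thus the spots of both miR-23 strands and of miR-24 were brighter at 46 weeks, while those of the miR-27 strands stayed near their level at 28 weeks or below it. At both ages each of the 5 spots was brighter in the tissue than in serum.

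The intensity around these spots, the local background, was raised and unequal. Around miR-23a-3p it was 894 at 28 weeks and 188 at 46 weeks in the tissue, against 416 and 369 in serum. Around miR-23b-3p it was 271 and 69.0 in the tissue, against 276 and 80.8 in serum. Around miR-27a-3p it was 194 and 350.3 in the tissue, against 78.3 and 145 in serum. Around miR-27b-3p it was 161 and 58.2, against 83.5 and 54.6, and around miR-24-3p 109.6 and 114, against 86.8 and 235. The median local background of miRNA spots lay between 42.1 and 51.7 on the 4 arrays, so the surroundings of miR-23a-3p in esophagus at 28 weeks were 17.4 times that median. A correction that subtracts the local background therefore shifts each of these miRNAs by a different amount at each age.

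**Figure D1:**
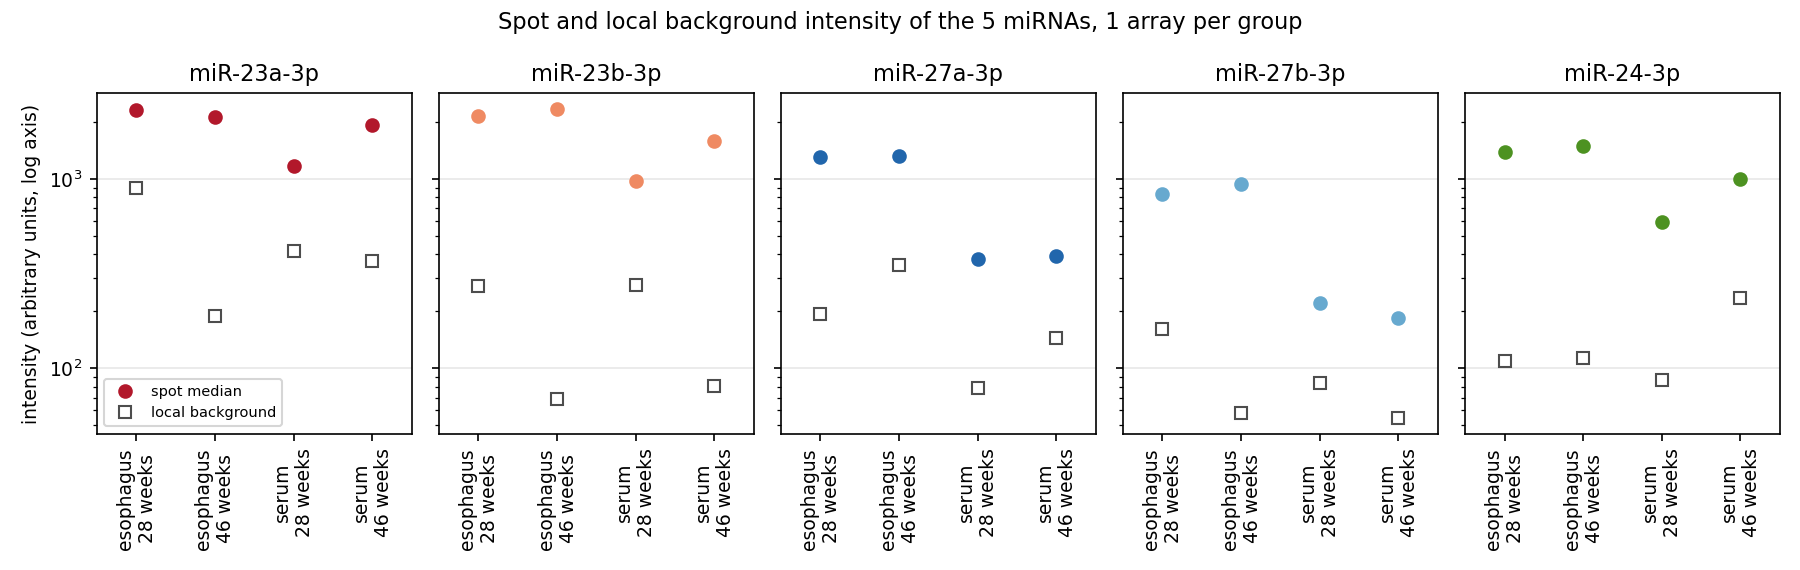
Intensity of the spot (filled circles) and of its surroundings (open squares) for each of the 5 miRNAs on the 4 arrays, in arbitrary units on a log axis, 1 array per group. In serum the spots of miR-23a-3p, miR-23b-3p and miR-24-3p are higher at 46 weeks, whereas the squares of miR-23b-3p drop from 276 to 80.8 and those of miR-24-3p go from 86.8 to 235.

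The design sets 28 against 46 weeks within each sample type. In esophagus, none of the 5 miRNAs reached 2-fold in either direction. Among the 843 miRNAs detected at both ages the share past 2-fold was 0.712%. The main values are log2 differences of 46 minus 28 weeks after correction with the local background and quantile normalization. They were -0.18 for miR-23a-3p (spot-noise SD 0.11), -0.18 for miR-23b-3p (0.09), -0.50 for miR-27a-3p (0.11), -0.04 for miR-27b-3p (0.09) and -0.29 for miR-24-3p (0.09). The spot-noise SD covers the scatter of control spots within an array, not variation between mice or hybridisations. The median of the 5 was -0.18, beside 0.00 over all 843 miRNAs.

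The direction in esophagus depended on the setting for each of the 5, with unscaled net signal counted among the settings. Net signal before any scaling gave -0.14 for miR-23a-3p, 0.12 for miR-23b-3p, 0.01 for miR-27a-3p, 0.18 for miR-27b-3p and 0.11 for miR-24-3p, while the median of 152 bright miRNAs, those with at least 100 net units at both ages, was 0.21 on the same scale. Relative to that median each of the 5 was lower, from -0.04 for miR-27b-3p to -0.35 for miR-23a-3p. Over 9 settings miR-27a-3p ranged from -0.52 to -0.21 and was negative in each, whereas its unscaled value was just above 0. The values of miR-23a-3p ranged from -0.48 to 0.35, those of miR-23b-3p from -0.23 to 0.19, those of miR-27b-3p from -0.17 to 0.29 and those of miR-24-3p from -0.29 to 0.04.

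In serum, 2 of the 5 members, miR-23a-3p and miR-23b-3p, reached 2-fold upward at 46 weeks and the other 3 did not reach 2-fold. The background over the 822 miRNAs present at both ages was 1.22% at this limit in the upward direction and 2.43% in either. The log2 difference was 1.30 for miR-23a-3p (spot-noise SD 0.14) and 1.12 for miR-23b-3p (0.13). It was 0.59 for miR-24-3p (0.12), 0.00 for miR-27a-3p (0.12) and -0.09 for miR-27b-3p (0.10). The median of the 5 was 0.59, beside 0.00 over all 822.

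The 2-fold call of both miR-23 strands was made only where each spot's own local background and quantile normalization were used together. With the local background and median scaling the differences were 0.92 for miR-23a-3p and 0.98 for miR-23b-3p. Without the local background they were 0.79 for miR-23a-3p and 0.53 for miR-23b-3p, where 1.09% of all miRNAs passed that limit upward, and 0.61 and 0.60 in the authors' deposited table. For miR-24-3p the difference became 0.78 when it was left out and 0.65 in the authors' deposited table. For miR-27a-3p it was 0.23 and -0.09, and for miR-27b-3p -0.27 and -0.54, in the same order. Since the correction subtracts the surroundings, their drop around miR-23b-3p adds to its difference and their increase around miR-24-3p takes from it.

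Across the 9 settings the 3 miRNAs miR-23a-3p, miR-23b-3p and miR-24-3p were positive in serum each time, and miR-27b-3p was negative each time. The ranges were 0.15 to 1.33 for miR-23a-3p, 0.14 to 1.16 for miR-23b-3p, 0.19 to 0.84 for miR-24-3p and -1.01 to -0.09 for miR-27b-3p. The sign of miR-27a-3p depended on the setting, from -0.56 to 0.26. The lowest values came from scaling to the spike-in spots, which puts the median over all 822 miRNAs at -0.72, so that even there the first 3 lay above the bulk of serum miRNAs.

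**Figure D2:**
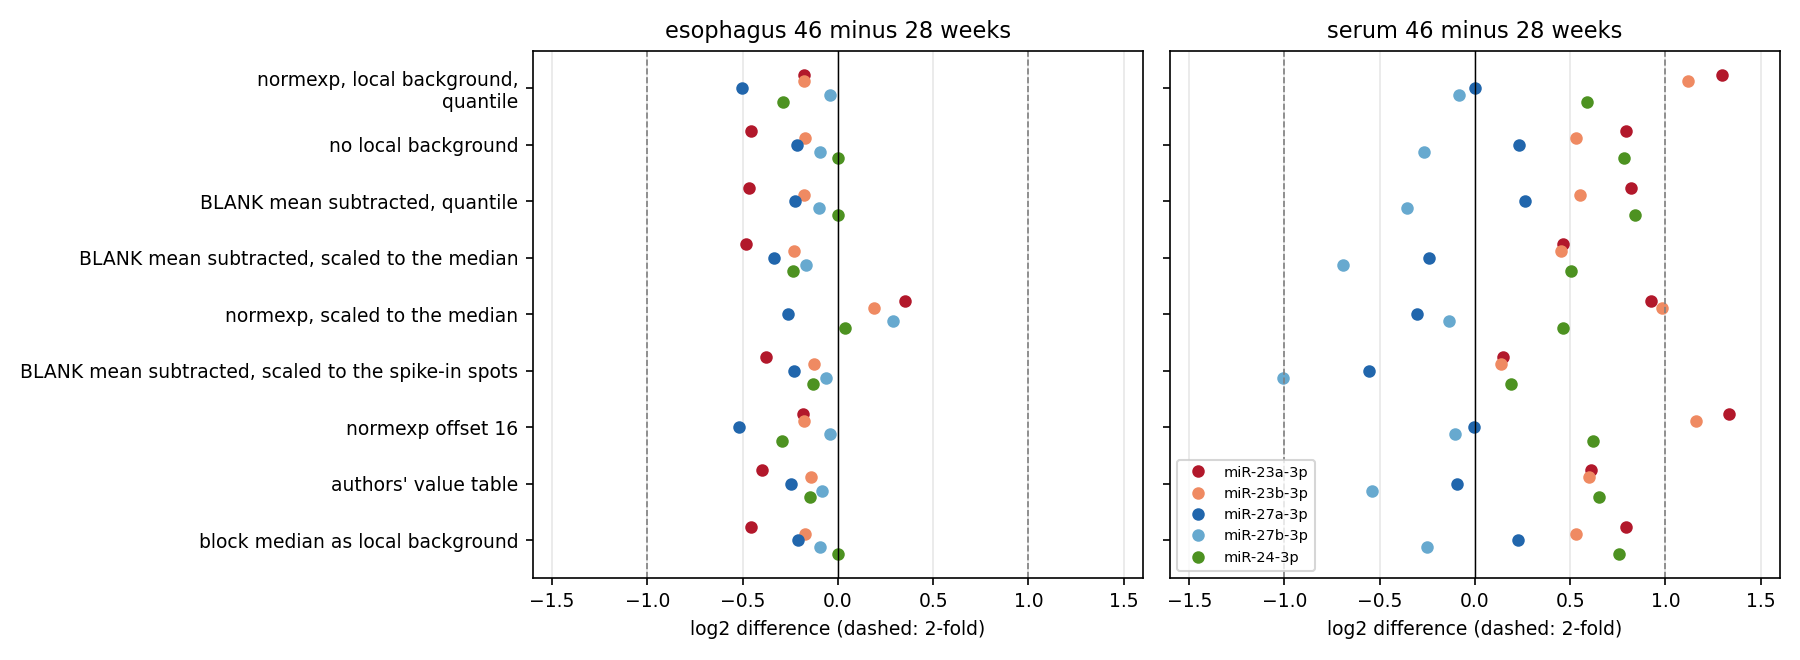
Log2 difference of 46 minus 28 weeks for each of the 5 miRNAs (colours) under 9 ways of correcting and scaling the arrays (rows), in esophagus (left) and serum (right), with dashed lines at 2-fold. In serum miR-23a-3p and miR-23b-3p pass 2-fold only with each spot's own local background and quantile normalization (offsets of 50 and 16), and the red, orange and green points stay above 0 in all 9 rows.

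Net signal before any scaling, which takes no account of differences between arrays in labelling or scanning, was compared in serum as well. It went from 1120.1 to 1863 for miR-23a-3p, 1.66 times its level at 28 weeks. For miR-23b-3p it went from 927 to 1534, 1.65 times, and for miR-24-3p from 549 to 942, 1.72 times. For miR-27a-3p it went from 332 to 340.0, 1.02 times, and for miR-27b-3p from 176 to 132, 0.749 times. The spike-in spots were also brighter on the array at 46 weeks, at 14018 against 9324 net units. On the spike-in scale the log2 differences were 0.15 for miR-23a-3p, 0.14 for miR-23b-3p, 0.19 for miR-24-3p, -0.56 for miR-27a-3p and -1.01 for miR-27b-3p. On net signal the change of miR-24-3p was 0.04 above that of miR-23a-3p and 0.05 above that of miR-23b-3p (spot-noise SD 0.16 each). In the main setting it was lower instead, by log2 values of -0.71 (0.19) and -0.53 (0.17), and over all corrections these gaps ranged from -0.71 to 0.04 and from -0.54 to 0.29.

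Among 143 bright serum miRNAs the median log2 difference of net signal was -0.13, with quartiles of -0.40 and 0.14. The values of miR-24-3p, miR-23a-3p and miR-23b-3p, at 0.78, 0.73 and 0.73, were the 11th, 13th and 14th largest of the 143. That of miR-27a-3p, 0.03, was the 48th and that of miR-27b-3p, -0.42, the 110th. The 5 members therefore lay both in the upper tail and in the lower part of the bright serum miRNAs.

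**Figure D3:**
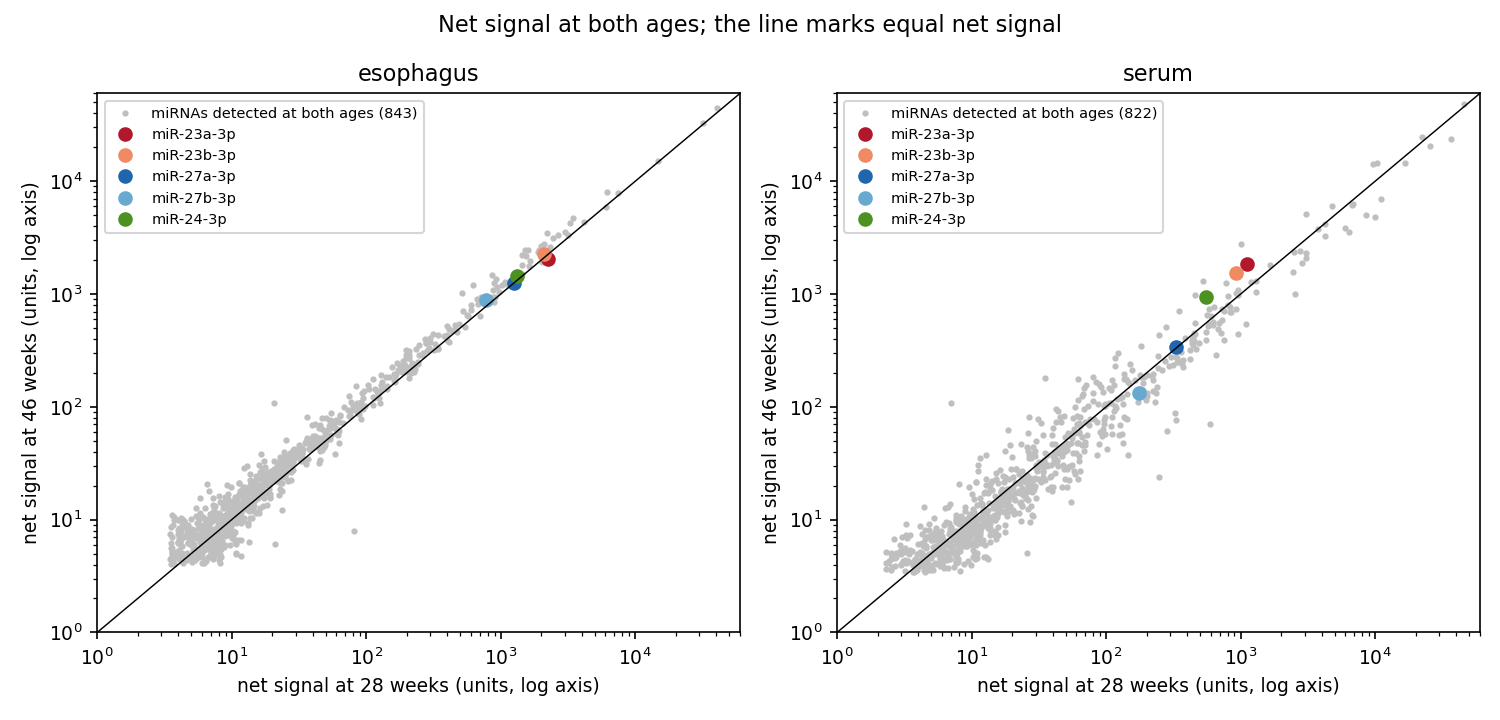
Net signal at 46 weeks against 28 weeks in esophagus (left) and serum (right) on log axes, with grey points for the 843 and 822 miRNAs detected at both ages and coloured points for the 5 members. In esophagus the coloured points sit close to the line of equal net signal, and in serum miR-23a-3p, miR-23b-3p and miR-24-3p lie above it, miR-27a-3p on it and miR-27b-3p below it.

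Strands of a common primary transcript were compared next. The difference between 2 miRNAs in their change of net signal does not depend on a factor applied to a whole array, although the background correction and quantile normalization can still move it. In serum, miR-23a-3p had a log2 change 0.70 above that of miR-27a-3p (spot-noise SD 0.16), its partner on chromosome 8. On chromosome 13, miR-23b-3p had a change 1.14 above that of miR-27b-3p (spot-noise SD 0.16). The gap between miR-24-3p and miR-27a-3p was 0.75 and that between miR-24-3p and miR-27b-3p 1.20, each with a spot-noise SD of 0.16. With the other corrections the gap ranged from 0.55 to 1.33 for miR-23a-3p against miR-27a-3p and from 0.78 to 1.26 for miR-23b-3p against miR-27b-3p, so both stayed positive in all settings run. The gap of miR-24-3p ranged from 0.53 to 0.77 against miR-27a-3p and from 0.60 to 1.20 against miR-27b-3p, where the main setting gave 0.59 and 0.67.

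In esophagus the gap on net signal was -0.15 for miR-23a-3p against miR-27a-3p (spot-noise SD 0.13) and -0.06 for miR-23b-3p against miR-27b-3p (0.13). In the main setting the first was 0.32 (0.15), and over all corrections it ranged from -0.24 to 0.62. The highest value came with normexp and scaling to the median. That setting and the main setting use the same local backgrounds, which went from 894 to 188 around miR-23a-3p and from 194 to 350.3 around miR-27a-3p. Their part in the gap was not tested. The gap of miR-23b-3p against miR-27b-3p ranged from -0.14 to -0.06. Whether the gaps differ between serum and esophagus was not tested.

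Paralogues were compared in the same way in serum, and which pair was closer depended on the correction. Binding of a probe to the strand of the paralogue was not tested for either pair, and such binding would make a gap smaller. The change of miR-23a-3p exceeded that of miR-23b-3p by 0.01 on the net scale (spot-noise SD 0.16), and the gap ranged from -0.06 to 0.27 over the other corrections. The change of miR-27a-3p exceeded that of miR-27b-3p by 0.45 (spot-noise SD 0.16), with a range of -0.17 to 0.62 that includes both signs. In the main setting the order of the 2 gaps turned, with 0.18 for the miR-23 strands (0.19) and 0.08 for the miR-27 strands (0.15). In esophagus the gap on net signal was -0.25 for the miR-23 strands and -0.17 for the miR-27 strands, each with a spot-noise SD of 0.13. There too the main setting turned the order, with 0.00 (0.14) and -0.46 (0.14), and the ranges were -0.29 to 0.16 and -0.55 to -0.12.

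**Figure D4:**
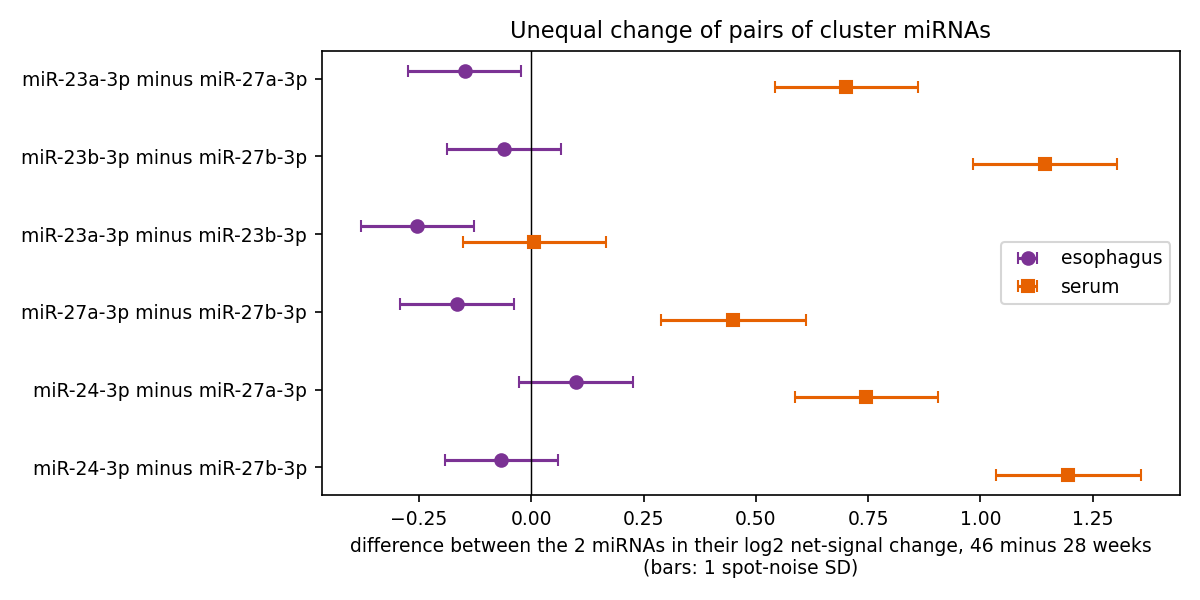
Difference between 2 miRNAs in their log2 change of net signal, 46 minus 28 weeks, for 6 pairs (rows) in esophagus (circles) and serum (squares), with bars of 1 spot-noise SD. In serum the 4 pairs of miR-23 or miR-24 against miR-27 lie between 0.70 and 1.20, the miR-23 paralogues lie at 0.01, and the esophageal points lie between -0.25 and 0.10.

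Each cluster hairpin also gives a strand from its other arm, and the mir-24 hairpins are overlapped on the minus strand by Mir3074-1 and Mir3074-2. These 9 other strands all had probes, and most were at the edge of detection. From 5 to 7 of them were detected per array, and 2 exceeded the stricter limit on all 4 arrays. Those 2 are shown, both from chromosome 8, with the seed in capitals.
mmu-miR-23a-5p (chr8:84208527-84208548, plus strand): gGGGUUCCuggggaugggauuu
mmu-miR-24-2-5p (chr8:84208839-84208860, plus strand): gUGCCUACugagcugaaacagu

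The spot of miR-24-2-5p, the other arm of the chromosome 8 mir-24 hairpin, read 115 at 28 weeks and 121 at 46 weeks in the tissue, against 74.0 and 88.1 in serum. Its main log2 difference with age was -0.10 in esophagus and 0.14 in serum. The spot of miR-23a-5p read 73.8 and 83.6 in the tissue, against 87.2 and 90.2 in serum, with differences of -0.14 and -0.02. In serum, miR-23a-5p thus did not share the difference of miR-23a-3p, the strand cut from the same hairpin. The offset draws values of spots this dim toward 0. With BLANK subtraction, median scaling and no offset, the differences in serum were -0.41 for miR-23a-5p and 0.08 for miR-24-2-5p. The same scale gave 0.46 for miR-23a-3p and 0.51 for miR-24-3p, and it put the median over all 822 miRNAs at -0.41.

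The chromosome 13 strand miR-24-1-5p was dimmer, with spots of 68.5 and 68.7 in esophagus and 53.9 and 57.2 in serum. The other arms of the miR-27 hairpins were near or under the limit of detection, miR-27a-5p with spots of 58.8 and 60.2 in the tissue and 49.2 and 54.3 in serum, and miR-27b-5p with 57.5 and 58.9 and then 46.6 and 53.0. The mir-23b arm miR-23b-5p was detected in esophagus alone, with spots of 58.2 and 64.2. The minus-strand neighbours had spots between 56.7 and 65.9 in the tissue and between 48.9 and 63.8 in serum. At these levels the offset leaves little room for a 2-fold difference, so no count of calls is given for the 9 other strands. Without it, the net signal of miR-3074-1-3p in esophagus went from 11.8 to 4.76, a log2 difference of -1.31 with a spot-noise SD of 0.64. That of miR-3074-2-3p in serum went from 2.67 to 6.68, a log2 difference of 1.32 with a spot-noise SD of 0.92.

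Esophagus was then set against serum at each age. These comparisons use the arrays of the age comparisons again. At 28 weeks none of the 5 miRNAs reached 4-fold. Among 731 miRNAs detected on all arrays, 2.6% passed that limit toward esophagus and 4.38% in either direction. The log2 excess of esophagus over serum was 1.15 for miR-23a-3p, 1.88 for miR-23b-3p, 1.84 for miR-27a-3p, 1.96 for miR-27b-3p and 1.58 for miR-24-3p, each with a spot-noise SD between 0.09 and 0.13. The median of the 5 was 1.84, beside -0.03 over all 731. Under 4 alternatives miR-27b-3p passed 4-fold at 28 weeks too. Its value was 2.09 after subtraction of the BLANK mean with quantiles (6.43% of all miRNAs passed upward) and 2.20 with median scaling (5.47%). It was 2.17 with an offset of 16 (4.24%) and 2.22 in the authors' deposited table (5.61%).

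At 46 weeks miR-27b-3p was at least 4-fold higher in esophagus and the other 4 were not, beside 2.33% of all 731 miRNAs, or 4.51% in either direction. The log2 difference was 2.02 for miR-27b-3p (spot-noise SD 0.09) and 1.37 for miR-27a-3p (0.13). It was 0.69 for miR-23b-3p, 0.42 for miR-24-3p and -0.13 for miR-23a-3p, and the median was 0.69, beside -0.02 over all. Over 9 settings miR-27b-3p lay between 2.02 and 2.72 and miR-23a-3p between -0.13 and 0.28, with 4 positive values of 9. In the main setting miR-27b-3p lay nearer to the 4-fold limit than its spot-noise SD at both ages, with 1.96 (0.09) at 28 weeks. The call at 46 weeks alone therefore does not set the 2 ages apart. At 46 weeks the miR-27 strands were thus the members with the larger excess in esophagus, and the excess of miR-23a-3p was near 0.

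**Figure D5:**
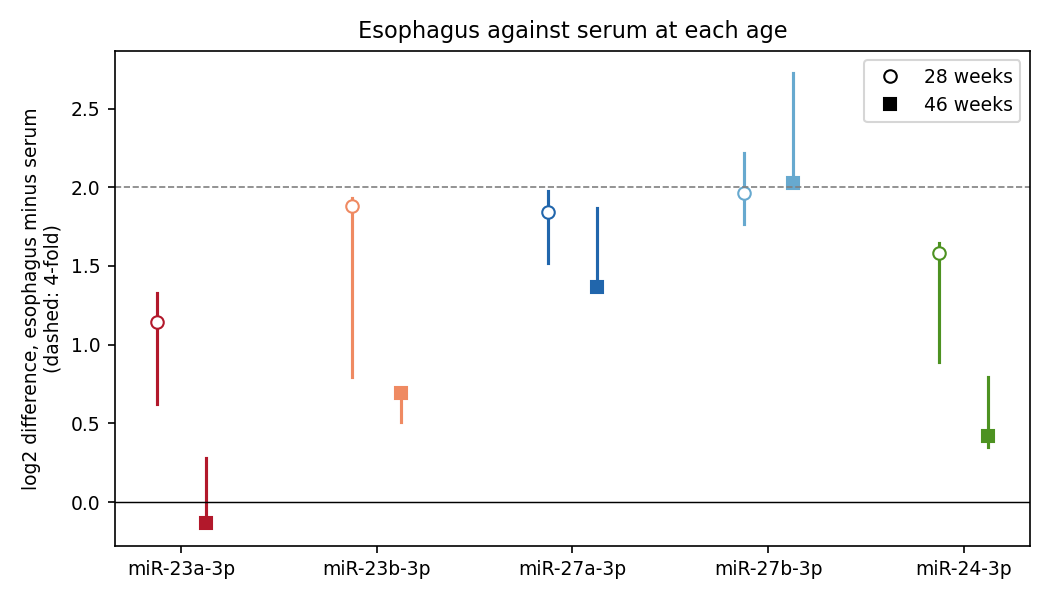
Log2 difference of esophagus minus serum for each of the 5 miRNAs at 28 weeks (open circles) and 46 weeks (filled squares) in the main setting, with lines from the lowest to the highest value over 9 settings and a dashed line at 4-fold. The squares of miR-23a-3p, miR-23b-3p and miR-24-3p lie well below their circles. That of miR-27a-3p lies below its circle too, at 1.37 against 1.84, and that of miR-27b-3p is at 2.02 against 1.96.

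Likeness of pattern was measured over the 4 arrays as the root mean square distance between log2 net signals, each miRNA centred on its own mean, among 366 miRNAs at or above the median level. The nearest miRNA to miR-23b-3p was miR-24-3p, at a distance of 0.0370, and the reverse also held. For miR-23a-3p the nearest was miR-214-3p at 0.0485, with miR-23b-3p the 5th at 0.175 and miR-24-3p the 7th at 0.203. For miR-27a-3p it was let-7e-5p at 0.0457, with miR-27b-3p the 23rd at 0.323, and for miR-27b-3p it was miR-1195 at 0.0775, with miR-27a-3p the 13th. The miRNA miR-27a-3p was the 162nd nearest to miR-23a-3p, at 0.708, and miR-27b-3p the 214th nearest to miR-23b-3p, at 0.884. The mean pattern of the 5 members was closest to those of miR-3072-3p, miR-31-5p and miR-378d, at distances of 0.140, 0.141 and 0.145. These distances describe the 4 arrays only, which the miRNAs compared share.

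In work on serum and plasma, miR-451a of erythrocytes is read against miR-23a-3p as a sign of haemolysis. Between 28 and 46 weeks in serum the difference of miR-451a minus miR-23a-3p changed by -1.94 in log2 units (SD of the spot noise 0.21) and by -1.37 on net signal, with a range of -1.97 to -1.08 over all settings. The net signal of miR-451a went from 36871 to 23648. In esophagus the same difference changed by 0.00 (spot-noise SD 0.13), or by 0.16 on net signal.

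Markers of other cell types were read beside the serum values. In the main setting 2.43% of the 822 serum miRNAs passed 2-fold in either direction. All 5 erythrocyte miRNAs were detected in serum at both ages, none passed 2-fold in the main setting, their median difference was -0.64, and their summed net signal went from 43865 to 28559.8. Unscaled net signal of miR-144-3p went from 134.5 to 47.4, of miR-144-5p from 12.8 to 4.63 and of miR-16-5p from 5924 to 3847. The shared probe of miR-486-5p and miR-3107-5p rose instead, from 923 to 1013. Of 4 leukocyte miRNAs, miR-150-5p passed 2-fold with a difference of 1.01 while its net signal was 449.97 and 449.06. The leukocyte median was 0.50, and the sum went from 1197 to 1973, of which miR-223-3p went from 526 to 1306. Net signal of miR-142-3p went from 33.9 to 55.7, whereas that of miR-142-5p went from 187 to 161. Neither of the 2 endothelial strands of miR-126 passed 2-fold, and their sum went from 349.6 to 339. The squamous sum went from 54.1 to 242, the striated muscle sum from 868 to 163, the smooth muscle sum from 257 to 224 and the columnar sum from 179 to 160.3, and the hepatocyte miRNA miR-122-5p went from 591 to 70.0. In the main setting miR-205-5p passed 2-fold upward, at 1.47, and miR-122-5p downward, at -2.83. All 3 striated muscle miRNAs detected at both ages passed downward, with a median of -1.49. None of the smooth muscle or columnar miRNAs passed 2-fold, and the members of both lists went both ways. Net signal of miR-143-3p went from 111 to 57.7 and that of miR-145a-5p from 146 to 166. In the columnar list, miR-192-5p went from 94.2 to 63.4 and miR-194-5p from 54.4 to 29.9. The other columnar miRNAs rose, miR-215-5p from 19.3 to 45.6 and miR-375-3p from 10.8 to 21.4. Among the erythrocyte and striated muscle lists, miR-144-5p in esophagus and miR-206-3p in serum at 46 weeks were not detected, at 1.01 to 2.30 and 1.24 net units. The part of these cells in the serum values of the miR-23/27/24 family was not tested.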

How the data were processed

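MicroRNAs in total RNA were labelled with Hy5 and read on 1-colour 3D-Gene arrays, per the labels' protocols. The deposited scanner files held linear median intensities of each spot and its surroundings, with 3 scanner gains joined by a fitted line, per the file headers, and were neither corrected nor normalized. The authors' deposited value table held linear intensities. Set against the scanner values, a column equalled the spot less a constant, which departed from the BLANK mean by -0.0417 at most, and then multiplied so that the listed miRNAs had a median of 25 (largest departure 0.0515). Which miRNAs it lists follows a rule not given in the sources used here.

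Spots were corrected with normexp in limma 3.58.1 (R 4.3.3; local background, offset 50). Control spots were left out, and log2 values went through quantile normalization, over the 2 arrays of a sample type for age and over 4 arrays for esophagus against serum. Calls were 2-fold for age and 4-fold for sample type, with no test because each group had 1 array. The number of arrays limits the precision. The spot-noise SD joins 2 parts, the scatter of No Probe spots and the relative scatter of the spike-ins. The procedure was tested on simulated data in which both arrays had the same local background, capped at the BLANK mean. That test therefore does not cover raised local backgrounds that differ between ages, as around these members. Alternatives left out the local background, subtracted the BLANK mean, scaled to the median or spike-in spots, used an offset of 16, or took the authors' table. Block medians as local background were added after the values were seen. Members, marker lists and the other strands of the clusters were chosen with earlier results of these data known. Named were all members, the 9 other strands, miR-451a, and the miRNAs nearest in pattern (3 to the mean of the members, 1 to each). The spot of miR-3109-5p on 1 esophagus array, marked as bad, was dropped. Sequences are RefSeq's, build GRCm38.p6. Figures used Python 3.11.15, pandas 2.3.3, numpy 2.4.6 and matplotlib 3.10.9.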

Additional observations from a re-analysis of the deposited data

Results flagged for a closer look

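The age difference of miR-24-3p had opposite signs in the 2 sample types, each beyond 2 spot-noise SDs. It was -0.29 in esophagus and 0.59 in serum on the log2 scale, so that the value in serum was 0.87 above that in esophagus. That gap between tissue and serum was not tested. Without the local background the value in esophagus was 0.00 and that in serum 0.78, so the negative sign in the tissue was not kept there. In esophagus 4 of 9 settings gave a positive value, 0.04 at most, and unscaled net signal gave 0.11. The spot-noise SD does not cover the choice of correction.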

How the results depend on the processing

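Under all 8 alternatives no member reached 2-fold in esophagus. The 2 serum members at least 2-fold higher, miR-23a-3p and miR-23b-3p, remained with an offset of 16, where 1.7% of all 822 miRNAs passed upward. Their count became 0 under the other 7 alternatives. With scaling to the spike-in spots 1 member, miR-27b-3p, was at least 2-fold lower, as were 29.8% of all 822 miRNAs. At 28 weeks 1 member, miR-27b-3p, passed 4-fold in esophagus against serum in several settings. These had the BLANK mean subtracted (quantile or median), an offset of 16 or the authors' table, and 4.24% to 6.43% of 731 miRNAs passed upward there. At 46 weeks miR-27b-3p passed under every alternative, beside 2.87% to 6.98% of all 731 miRNAs passing upward. The median of the 5 members in esophagus became 0.19 with normexp and scaling to the median. In serum it became 0.46 there, 0.45 after BLANK subtraction with median scaling, and 0.14 on the spike-in scale. For esophagus against serum at 28 weeks it became 1.49 without the local background or with block medians, 1.53 with the BLANK mean subtracted and quantiles, 1.33 with the median in their place, 1.35 with normexp and the median, 0.89 on the spike-in scale and 1.34 in the authors' table. At 46 weeks it became 0.57 on the spike-in scale and 0.54 in the authors' table. The share of all miRNAs past the limit became 1.08% in esophagus with the stricter filter on dim miRNAs. Without a filter it became 1.58% in serum and 2.69% for esophagus against serum at both ages. More and fewer dim miRNAs enter these shares by construction, and the cause of the other changes was not tested. Of all serum miRNAs past 2-fold, 10 were higher and 10 lower in the main setting, against 58 and 36 after BLANK subtraction with quantiles, 17 and 109 with median scaling, 6 and 12 with normexp and the median, 5 and 245 on the spike-in scale and 28 and 72 in the authors' table. No member that passed a limit changed sign in these settings. No paired analysis was possible because each group had 1 array. The miR-27b-3p spot in serum, at 132 to 176 net units, had the lowest net signal of the 5 members on both serum arrays.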
